A study of Mus musculus with 2 samples.

Results

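The BCL2 family genes of the mouse were examined in embryonic stem cells labelled as overexpressing Pc4 and in cells labelled as a control. Pc4, or positive cofactor 4, is a single-stranded DNA-binding transcriptional coactivator encoded by Sub1. The 10 genes were taken by symbol from the 24061 rows of the deposited read count table: Bcl2, Bcl2l1 and Mcl1, which are antiapoptotic, and Bax, Bak1, Bid, Bad, Bbc3, Pmaip1 and Bcl2l11, which are proapoptotic. Each symbol stood on 1 row, and all 10 genes had at least 20 counts summed over both libraries, the minimum for a ratio.

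The library labelled Pc4-OE came from C57BL/6 stem cells at passages 24 to 37, and the design text describes 3 overexpressing lines picked as colonies after infection with a lentivirus that carries Venus, a yellow fluorescent protein. The library labelled control came from C57BL/6 stem cells at passages 17 to 23, with no virus named. Both cultures were kept with leukaemia inhibitory factor on feeder fibroblasts from mouse embryos. Which of these lines gave the 1 Pc4-OE library is not in the labels, and passage and label cannot be told apart. There was 1 library per label, so no difference below has a replicate check and no p-value is given.

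The Pc4-OE-labelled library held 10194783 counts and the control-labelled library 10571463. Levels are CPM, read counts scaled to a common library size after TMM adjustment. Sub1 itself was at 235.0 CPM in the Pc4-OE-labelled library and at 530.3 CPM in the control-labelled library, a log2 ratio of -1.17 that goes against the label, so every direction below is that of the labels and would turn round if they were exchanged. The 12 stem cell markers listed, none at 0 in either library, summed to 5359 CPM in the Pc4-OE-labelled library and 6577 CPM in the control-labelled library. Of these, 0 were at least 2-fold higher and 1 lower (Lin28a, 2.02-fold), against 11.8% and 4.02% of the 14213 genes measured. The interval of the ratio lay above 1 for 4 and below 1 for 6, against 31.2% and 33.1% of all genes. Markers of feeder fibroblasts summed to 13462 CPM in the Pc4-OE-labelled library and 5208 CPM in the control-labelled library, with 18 of 23 at least 2-fold higher and none at 0 in either library. Macrophage markers summed to 581 CPM in the Pc4-OE-labelled library and 215 CPM in the control-labelled library, with 15 of 16 at least 2-fold higher and none at 0. In such bulk libraries, more cells of a type and more RNA per cell cannot be told apart, and the part of these cells in the values below was not tested.

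The BCL2 family decides whether the outer mitochondrial membrane is opened in apoptosis. BAX and BAK are the effectors that form the openings, and the antiapoptotic proteins BCL2, BCL-XL (from Bcl2l1) and MCL1 hold them and their activators in check. BH3-only proteins sense damage or loss of survival signals: BIM (from Bcl2l11), BID and PUMA (from Bbc3) bind widely and can activate the effectors, BAD binds BCL2 and BCL-XL, and NOXA (from Pmaip1) binds mainly MCL1. Mouse embryonic stem cells are known to die readily after DNA damage, and Bbc3, Pmaip1 and Bax are known targets of p53.

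Promoter windows of Bbc3, Bax and Bcl2l1 are shown because Bbc3 and Bcl2l1 had the highest ratios among the well-counted members, whereas Bax, a p53 target like Bbc3, had a ratio below 1. Each sequence is the 250 bases before the most upstream start site listed for the gene in a table of RefSeq promoters (GRCm38.p6), written in the direction of the gene: chr7:16309333-16309582 (plus strand) for Bbc3, chr7:45466899-45467148 (minus strand) for Bax and chr2:152831729-152831978 (minus strand) for Bcl2l1. The RefSeq gene itself begins further upstream than the listed start, by 1185 bases for Bbc3, 2075 for Bcl2l1 and 1777 for Mcl1, so these 3 windows lie inside the gene's span. For Bid the offset was 238 bases, for Bax 5 and for Bad, Bak1, Bcl2 and Bcl2l11 0, and nothing upstream of a window was searched. Capitals mark matches, on either strand, to 6 motifs: the STAT motif TTCNNNGAA, the E-box CACGTG, the forkhead motif GTAAACA, the composite CHOP and ATF motif TTGCATCA, the GC box GGGCGG and the p53 half-site.
Bbc3: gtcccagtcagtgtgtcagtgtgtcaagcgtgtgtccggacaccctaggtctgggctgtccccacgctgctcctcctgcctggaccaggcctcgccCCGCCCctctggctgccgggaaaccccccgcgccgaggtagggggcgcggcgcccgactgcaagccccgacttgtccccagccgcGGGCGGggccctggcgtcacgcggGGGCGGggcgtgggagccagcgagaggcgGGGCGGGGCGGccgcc
Bax: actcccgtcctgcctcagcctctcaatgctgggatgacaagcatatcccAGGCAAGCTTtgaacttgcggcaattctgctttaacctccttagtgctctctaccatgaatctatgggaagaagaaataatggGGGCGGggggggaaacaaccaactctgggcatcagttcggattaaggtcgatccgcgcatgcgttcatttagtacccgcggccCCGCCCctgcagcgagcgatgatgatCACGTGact
Bcl2l1: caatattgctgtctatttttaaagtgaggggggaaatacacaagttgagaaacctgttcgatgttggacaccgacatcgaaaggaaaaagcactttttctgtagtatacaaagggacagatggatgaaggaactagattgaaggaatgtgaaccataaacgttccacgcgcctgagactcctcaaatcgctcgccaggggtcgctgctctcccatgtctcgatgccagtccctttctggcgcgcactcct
In Bbc3 all 5 matches were GC boxes, of which the last 2 share 1 base. In Bax the first match was a p53 half-site, 201 to 192 bases before the listed start, followed by 2 GC boxes and an E-box. The Bcl2l1 window held no match. Promoters of 9 of the 10 members were in the table, and the Pmaip1 sequence is not shown. A GC box lay in 7 of these 9, against 33.0% of 27025 promoters of the same length. The GC content of the 9 windows ran from 47.6% (Bcl2l1) to 76.4% (Bbc3), against a median of 52.0% for all promoters. All but Bcl2l1 lay above that median, and the shares were not matched for GC content. A p53 half-site lay in 1 of 9 (Bax, against 7.16% of all), an E-box in 1 (Bax, 6.04%) and the forkhead motif in 1 (Bcl2l11, 3.06%). The STAT motif (7.14% of all) and the CHOP and ATF motif (0.825%) had no match in the 9 windows. These matches describe letters in the windows only.

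No member differed by as much as 2-fold with an interval that excludes a ratio of 1 (0 of 10 higher, 0 of 10 lower), while 11.8% of the 14213 genes measured were that much higher in the Pc4-OE-labelled library and 4.02% that much lower. Intervals are exact 95% binomial intervals of the counts and cover counting error only. At a 1.5-fold threshold, 2 members were higher (Bbc3 and Bcl2l1), against 18.8% of all genes, and 0 were lower, against 13.2%. The interval lay above 1 for 4 members (Bcl2l1, Mcl1, Bbc3 and Bcl2l11), against 31.2% of all genes, and below 1 for 2 (Bax and Bak1), against 33.1%. These shares lay near those of all genes and single out nothing about the members. The median log2 ratio was 0.07 over the 10 members and -0.01 over all genes. If the cultures are assumed to vary by a biological coefficient of variation of 0.2, the widened interval excludes 1 for Bbc3 alone.

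**Figure D1:**
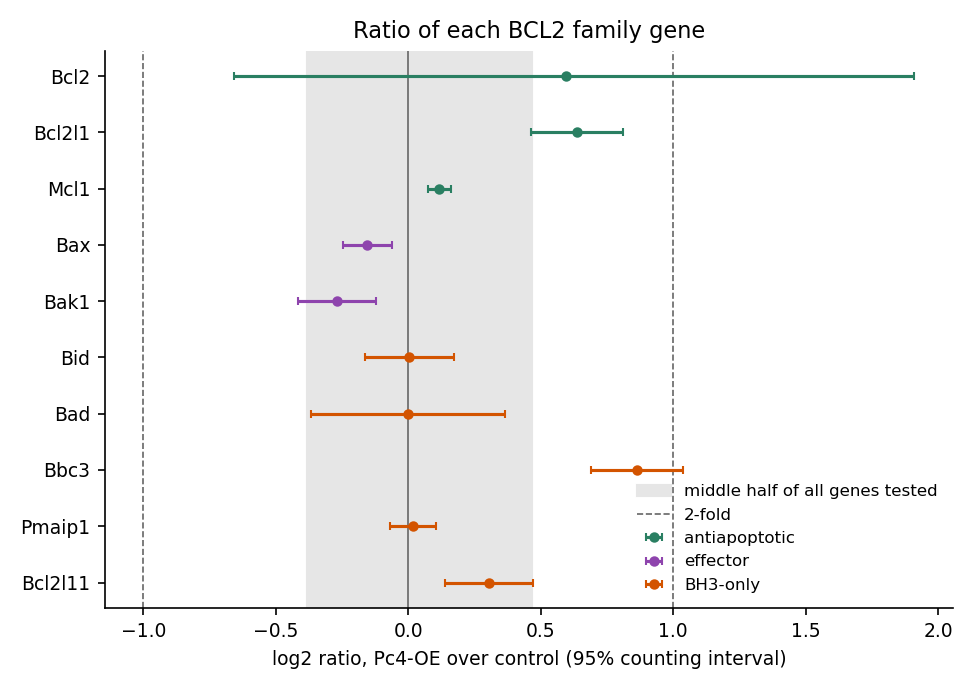
Log2 ratio of Pc4-OE over control (horizontal axis) for each of the 10 genes, with points for the ratio, bars for the 95% counting interval, dashed lines at 2-fold and grey for the middle 50% of all genes measured. Bbc3, at 0.86, lies nearest to the 2-fold line with a narrow interval, Bax and Bak1 lie left of 0, and Bcl2 has the widest interval.

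Among the antiapoptotic genes, Mcl1 was the main transcript in both libraries and Bcl2l1 differed most clearly. Positions are those of the RefSeq genes on GRCm38. Mcl1 (chromosome 3, 95656944 to 95663179) encodes a short-lived protein that embryonic cells need. It had 8540 counts (825 CPM) in the Pc4-OE-labelled library and 7924 counts (761 CPM) in the control-labelled library. That is a log2 ratio of 0.12 (interval 0.07 to 0.16), a small difference on a large count. Bcl2l1 (chromosome 2, 152758732 to 152833803), whose long splice form is BCL-XL and whose short form BCL-XS promotes death, had 701 counts (67.7 CPM) in the Pc4-OE-labelled library and 454 counts (43.6 CPM) in the control-labelled library. It was 1.55-fold higher in the Pc4-OE-labelled library (interval 1.38 to 1.75), with a lower ratio in 80.3% of all genes measured and a higher one in 19.7%. Gene-level counts do not separate the 2 forms. Bcl2 (chromosome 1, 106538176 to 106714290), the founding member of the family, had only 15 counts (1.45 CPM) in the Pc4-OE-labelled library and 10 counts (0.960 CPM) in the control-labelled library. Its log2 ratio of 0.59 had an interval of -0.66 to 1.91, so no difference was detectable at this depth.

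Both effector genes were slightly lower in the Pc4-OE-labelled library. Bax (chromosome 7, 45461695 to 45466903), the mainly cytosolic effector, had 1814 counts (175 CPM) in the Pc4-OE-labelled library and 2033 counts (195 CPM) in the control-labelled library, a log2 ratio of -0.16 (interval -0.25 to -0.06). Bak1 (chromosome 17, 27019812 to 27028627), whose protein resides on the mitochondrial membrane, had 692 counts (66.9 CPM) in the Pc4-OE-labelled library and 839 counts (80.6 CPM) in the control-labelled library, a log2 ratio of -0.27 (-0.42 to -0.12). Among all genes, 32.2% had a lower ratio than Bak1 and 67.8% a higher one, and for Bax the shares were 40.3% and 59.7%.

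The 5 BH3-only genes did not move together. Bbc3 (chromosome 7, 16308398 to 16318334) had 771 counts (74.5 CPM) in the Pc4-OE-labelled library and 427 counts (41.0 CPM) in the control-labelled library, 1.82-fold higher (interval 1.61 to 2.05), with a lower ratio in 85.3% of all genes and a higher one in 14.7%. Bcl2l11 (chromosome 2, 128126038 to 128162547) had 664 counts (64.2 CPM) in the Pc4-OE-labelled library and 541 counts (52.0 CPM) in the control-labelled library, 1.23-fold higher (1.10 to 1.39). Both encode BH3-only proteins that bind all of the main antiapoptotic members. Pmaip1 (chromosome 18, 66458604 to 66465558) had 2194 counts (212 CPM) in the Pc4-OE-labelled library and 2180 counts (209 CPM) in the control-labelled library, a log2 ratio of 0.02 (-0.07 to 0.10). Bid (chromosome 6, 120893119 to 120917062), which is cut by caspase-8 and so links death receptors to mitochondria, had 578 counts (55.8 CPM) in the Pc4-OE-labelled library and 580 counts (55.7 CPM) in the control-labelled library, a log2 ratio of 0.0038 (-0.17 to 0.17). Bad (chromosome 19, 6941861 to 6951905), which survival kinases keep inactive by phosphorylation, had 127 and 128 counts (Pc4-OE and control), both 12.3 CPM, a log2 ratio of -0.0026 (-0.37 to 0.36). The known p53 targets of the family thus stood at log2 ratios of 0.86 (Bbc3), 0.02 (Pmaip1) and -0.16 (Bax). The interval of Bbc3 lay above both others. Those of Pmaip1 and Bax overlapped only at their ends (lower bound -0.068 and upper bound -0.064). Such an overlap does not decide whether the ratios of Pmaip1 and Bax differ.

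Some of these counts share sequence with other genes. In GENCODE M21, exons of Bad overlap 517 bases of Gpr137 on the opposite strand, which had 229 and 163 counts (Pc4-OE and control). Exons of Bak1 overlap 256 bases of Ggnbp1 on the opposite strand (131 and 99 counts). Exons of Bcl2 overlap 558 bases of the antisense gene D630008O14Rik. Those of Bax overlap 192 bases of Gm45808 on the same strand. The kit keeps strand, but the strand setting of the counting is not given in the sources used here, so the values of Bad, Bak1 and Bcl2 are uncertain to that extent. No strand setting separates reads from the bases that Bax shares with Gm45808, so its value is uncertain there too. The longest protein-coding transcript of each member was also searched against all transcripts. Outside the overlaps with Ggnbp1 and D630008O14Rik, no other gene matched it at 95% identity or more over at least 200 bases. Exons outside that transcript were not searched, and the overlap of Bad with Gpr137 was not among the matches.

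Per kilobase of exon the 10 levels spanned a wide range, 1525-fold in the Pc4-OE-labelled library and 2147-fold in the control-labelled library. Both spans rest on Bcl2 as the lowest gene, with 15 and 10 counts (Pc4-OE and control), and are imprecise. Its intervals were 0.0886 to 0.261 and 0.0503 to 0.193 CPM per kilobase. In the Pc4-OE-labelled library the order of CPM per kilobase was Mcl1 (241), Bax (202), Pmaip1 (77.6), Bbc3 (41.1), Bak1 (28.0), Bid (25.5), Bcl2l1 (17.4), Bcl2l11 (9.30), Bad (5.13) and Bcl2 (0.158). Neighbours in that order differed beyond counting error except Bak1 and Bid. In the control-labelled library it was Bax (225), Mcl1 (223), Pmaip1 (76.6), Bak1 (33.8), Bid (25.4), Bbc3 (22.6), Bcl2l1 (11.2), Bcl2l11 (7.53), Bad (5.14) and Bcl2 (0.105). There Bax and Mcl1, and Bid and Bbc3, did not differ beyond counting error. Bbc3 stood at rank 4 in the Pc4-OE-labelled library and at rank 6 in the control-labelled library. Among the 13116 measured genes with a length, Mcl1 was above 99.0% in the Pc4-OE-labelled library and 98.8% in the control-labelled library, and Bcl2 above 0.465% and 0.526%. The transcript pool of the family was thus carried by Mcl1 and Bax in both libraries, as the plot of levels by library shows.

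**Figure D2:**
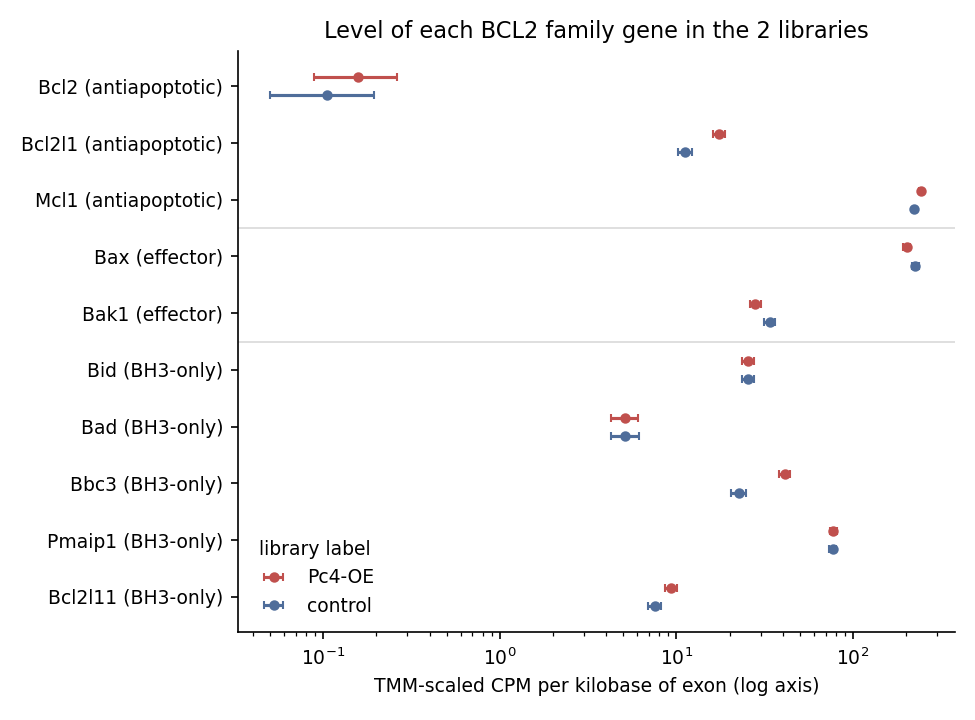
Level of each gene in TMM-scaled CPM per kilobase of exon on a log axis, with red for the Pc4-OE-labelled library above blue for the control-labelled library and bars for exact 95% Poisson intervals. Red and blue points nearly coincide for Pmaip1, Bid and Bad, and the largest gaps between well-counted points are those of Bbc3 and Bcl2l1.

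Taken as classes, the antiapoptotic genes summed to 259 CPM per kilobase in the Pc4-OE-labelled library and 234 in the control-labelled library, a log2 ratio of 0.15 (interval 0.10 to 0.19). The proapoptotic genes summed to 389 CPM per kilobase in the Pc4-OE-labelled library and 396 in the control-labelled library, a log2 ratio of -0.03 (-0.08 to 0.03). Within a library, the antiapoptotic sum was 0.666 of the proapoptotic sum in the Pc4-OE-labelled library and 0.590 in the control-labelled library, a log2 difference of 0.17 (0.10 to 0.25) that does not depend on the scaling of the libraries. Which class is larger does depend on length: from CPM not divided by length, the antiapoptotic sum was 1.35 of the proapoptotic sum in the Pc4-OE-labelled library and 1.25 in the control-labelled library, a log2 difference of 0.12 (0.05 to 0.18). Per kilobase, the log2 difference was 0.51 without Mcl1 and Bax, which hold most of either sum. The proapoptotic total joined sums with opposite directions. The effectors summed to 230.2 CPM per kilobase in the Pc4-OE-labelled library and 259 in the control-labelled library (log2 ratio -0.17, -0.25 to -0.09). The BH3-only genes summed to 159 and 137 (Pc4-OE and control, log2 ratio 0.21, 0.14 to 0.27). Most of that BH3-only gap was Bbc3, at 41.1 and 22.6 CPM per kilobase. The median log2 ratio of the BH3-only genes was 0.02. Of the summed level of all 10 genes, Mcl1 took 37.3% in the Pc4-OE-labelled library and 35.3% in the control-labelled library, Bax 31.2% and 35.7%, and Bbc3 6.34% and 3.59%. These are transcript levels, and the stability and modification of the proteins were not measured.

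**Figure D3:**
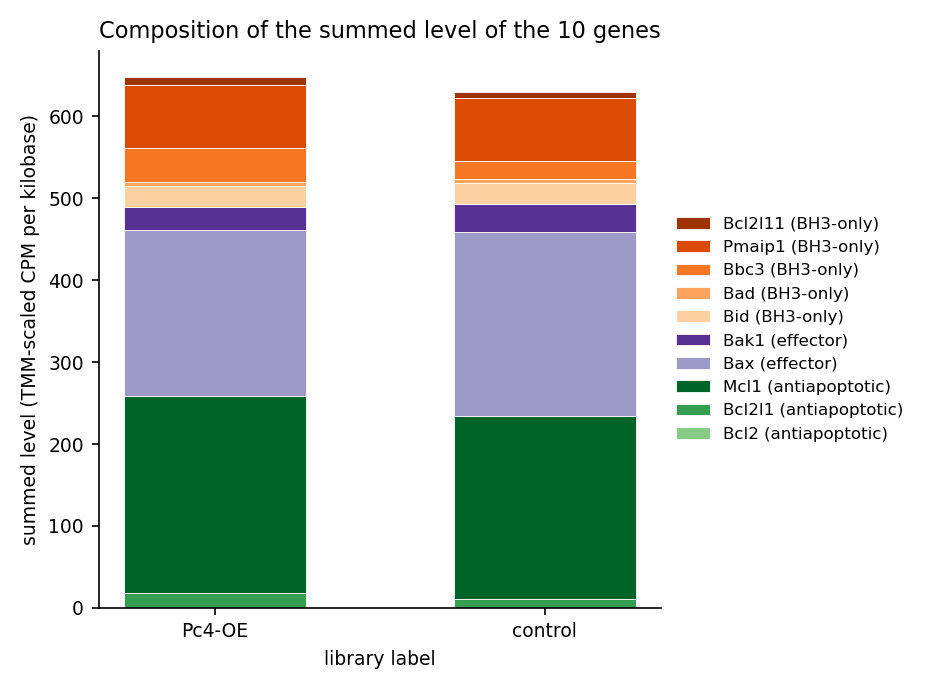
Stacked bars of the level of each gene (CPM per kilobase) in the Pc4-OE-labelled library and in the control-labelled library, with antiapoptotic genes in green, effectors in purple and BH3-only genes in orange. Mcl1 and Bax fill most of either bar, the Bbc3 segment is larger in the Pc4-OE-labelled library and the Bax segment smaller.

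Ratios of counts between a pair of genes within a library were also compared, since they are free of library scaling. The 21 pairs of an antiapoptotic with a proapoptotic gene reuse 3 antiapoptotic genes, so each of these was read against all other genes measured. Bcl2l1 gained on 6 of 7 proapoptotic partners in the Pc4-OE-labelled library and lost on 0, while it gained on 64.9% of all genes and lost on 10.1%. Mcl1 gained on 3 of 7 and lost on 2, against 40.2% and 25.0% of all genes. Bcl2, on few counts, had intervals that included no difference with all 7, and gained on 9.52% and lost on 2.11% of all genes. These counts do not single out the proapoptotic partners. Bcl2l1 had 0.386 counts per Bax count in the Pc4-OE-labelled library and 0.223 in the control-labelled library (log2 difference 0.79, interval 0.59 to 0.99), and 1.01 and 0.541 per Bak1 count (0.90, 0.68 to 1.13). Against Bbc3 the Bcl2l1 ratio was 0.909 in the Pc4-OE-labelled library and 1.06 in the control-labelled library, with an interval that included no difference (-0.47 to 0.02). Mcl1 had 4.71 counts per Bax count in the Pc4-OE-labelled library and 3.90 in the control-labelled library (0.27, 0.17 to 0.38). Per Bbc3 count it had 11.1 in the Pc4-OE-labelled library and 18.6 in the control-labelled library (-0.74, -0.92 to -0.57). Mcl1 and Bcl2l11 moved the same way on a smaller scale (-0.19, -0.36 to -0.02).

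**Figure D4:**
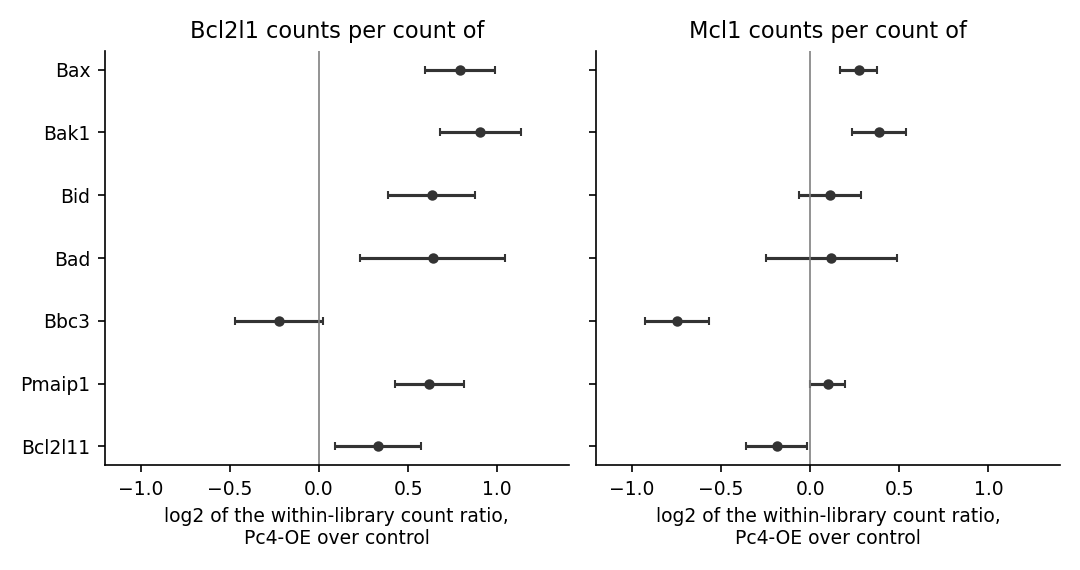
Log2 difference, Pc4-OE over control, in the within-library count ratio of Bcl2l1 (left panel) and Mcl1 (right panel) to each proapoptotic gene, with bars for exact 95% conditional intervals. All points for Bcl2l1 lie right of 0 except the one with Bbc3 (-0.23), and the point of Mcl1 with Bbc3 (-0.74) lies farthest left.

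Of the other BCL2 family genes listed, 17 were in the table and 12 had enough counts, of which 2 met the 2-fold rule upward in the Pc4-OE-labelled library, 0 downward and 10 neither. Among all genes measured, 11.8% met the rule upward and 4.02% downward. The median log2 ratio of the 12 was 0.13. Bcl2l2, which encodes the antiapoptotic BCL-W, had 375 counts (36.2 CPM) in the Pc4-OE-labelled library and 179 counts (17.2 CPM) in the control-labelled library, 2.11-fold higher (interval 1.76 to 2.53). On the same strand, 594 bases of Bcl2l2 overlap another annotated gene, Gm20521, and reads from them could not be told apart. Bcl2a1b had 28 counts in the Pc4-OE-labelled library and 1 in the control-labelled library, a ratio of 28.2 (4.66 to 1152). Bcl2a1a had 7 and 1 counts and Bcl2a1d 10 and 0 (Pc4-OE and control), and Bcl2a1c was at 0 in both. The Bcl2a1 genes encode antiapoptotic A1 proteins typical of blood cells. They are near-identical copies whose reads the counting could split, and they lay in the direction of the macrophage markers (median log2 ratio 2.26). Bok, a BAX-like gene, was 1.73-fold lower in the Pc4-OE-labelled library (72 and 125 counts, Pc4-OE and control). Bnip3, a mitophagy receptor with a BH3-like motif, had a log2 ratio of 0.22 (0.12 to 0.31), and Bmf and Hrk, further BH3-only genes, had 0.03 and -0.02 with intervals that included 0.

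Downstream of the mitochondria, 13 genes for the apoptosome, caspases and released mitochondrial factors were listed. The 2-fold rule was met by 0 upward and 0 downward, against 11.8% and 4.02% of all genes. At these shares, counts of 0 single out nothing about so short a list. The median log2 ratio was -0.11. Apaf1, the scaffold of the apoptosome, was at 173 CPM in the Pc4-OE-labelled library and 115 CPM in the control-labelled library (log2 ratio 0.59), and Casp6, an executioner caspase, had a log2 ratio of 0.77. Aifm1 and Diablo, which encode the released proteins AIF and SMAC, had log2 ratios of -0.77 and -0.47. All 5 inhibitor of apoptosis genes met the 2-fold rule in neither direction, which likewise singles out nothing. Their median was 0.11, with Birc2 at 0.36, Birc5 (survivin) at -0.31 and Birc6 at -0.32.

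Of the 8 pathway lists, the death receptor list had the median farthest from 0. Of its 8 genes, the 2-fold rule was met by 4 upward in the Pc4-OE-labelled library and by 0 downward. The shares among all genes were 11.8% and 4.02%. The median log2 ratio of the list was 1.06. Cflar, the inhibitor of caspase-8 known as FLIP, was at 70.1 CPM in the Pc4-OE-labelled library and 25.1 CPM in the control-labelled library, 2.80-fold higher (interval 2.43 to 3.24). Casp8, the protease that cuts BID, was 2.46-fold higher (1.94 to 3.13) and Tnfrsf1a, a TNF receptor, 2.22-fold higher (1.94 to 2.55). The fourth was Fas (2.31-fold), named after its value was seen, and Tnfrsf10b, the TRAIL receptor, had a log2 ratio of 0.96. Fadd, the adaptor of FAS, was 1.81-fold lower on 34 and 62 counts (Pc4-OE and control). The fibroblast markers, with a median log2 ratio of 1.29 and 23 of 23 above 0, lay in the direction of this list, and their part in it was not tested.

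Genes known to regulate the family went both ways. Of 9, Ddit3 was at least 2-fold higher and Myc at least 2-fold lower in the Pc4-OE-labelled library. The shares among all genes were 11.8% and 4.02%. The interval lay above 1 for 4 of the 9 and below 1 for 3, against 31.2% and 33.1% of all genes. The median log2 ratio of the list was 0.04. Ddit3 encodes CHOP, a stress factor that can induce Bcl2l11 and Bbc3, and was at 75.5 CPM in the Pc4-OE-labelled library and 11.9 CPM in the control-labelled library. Trp53 itself had a log2 ratio of -0.74 (interval -0.82 to -0.67), while Mdm2, its target and inhibitor, had 0.84 (0.78 to 0.90). Foxo3, a forkhead factor that can induce Bcl2l11 and Bbc3, had 0.48, and Foxo1 had -0.01 with an interval that included 0. Whether any of these regulators had a part in the ratios of the members was not tested.

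**Figure D5:**
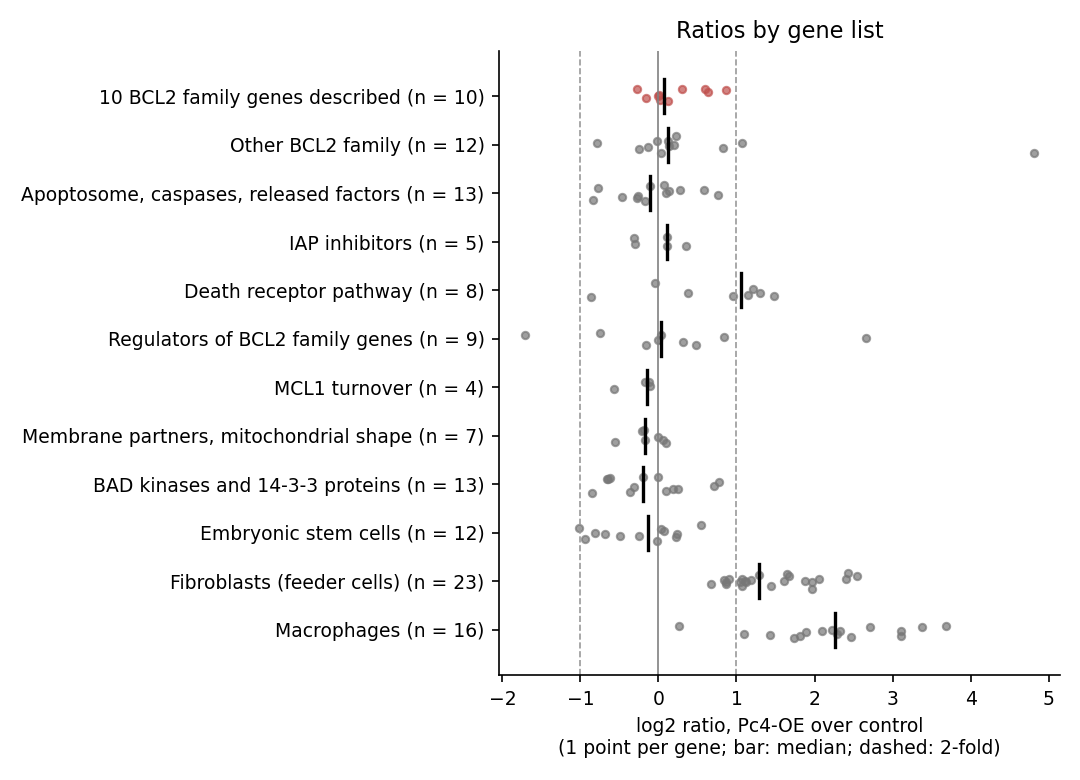
Log2 ratio of Pc4-OE over control for each measured gene (points) of the 10 members (red) and of each listed group (grey), with black bars at the medians and dashed lines at 2-fold. The members lie between -0.27 and 0.86 around a median of 0.07, while the medians of the death receptor, fibroblast and macrophage lists lie right of the 2-fold line.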

How the data were processed

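Poly(A) RNA of 2 libraries was sequenced after stranded TruSeq mRNA preparation, per the labels' protocols. The authors deposited whole-number read counts per gene, made with STAR 2.4.1c and featureCounts on mm10, per the submitters' processing notes. For annotation, strand setting and multi-mapping reads, the choice is not given in the sources used here. CPM values were computed with TMM-adjusted library sizes (edgeR 4.0.16). Genes whose 2 counts summed to 20 or more got a ratio, Pc4-OE over control, with nothing added to either value. Its 95% interval is the exact binomial (Clopper-Pearson) interval. Intervals of class sums use the delta method on Poisson counts, and those of within-library ratios are exact conditional odds-ratio intervals (SciPy 1.17.1). All intervals cover only counting error: reads without molecular identifiers can be copies of 1 molecule, and cultures were not replicated. A gene at 0 in 1 library was set against a floor of 3 counts (0.290 CPM in the Pc4-OE-labelled library and 0.288 in the control-labelled library). Lengths are unions of exons of protein-coding transcripts in GENCODE M21, and promoters came from a RefSeq table. Both are on GRCm38, the assembly that mm10 copies. The steps were tested on simulated data. The members and lists were chosen with earlier results of these data known. Named genes are the 10 members, Sub1 and up to 4 genes of each list by the interval bound nearest to a ratio of 1. Others named after their values were seen are Fas, Fadd, Bmf, Hrk, Foxo1, Foxo3, Gpr137, Ggnbp1, Gm20521 and the other Bcl2a1 copies. Alternatives were library totals, DESeq2 1.42.0 size factors, a pseudocount of 0.5 CPM, other count minimums, a 1.5-fold threshold, widened intervals, raw or shortened sums and another length.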

Additional observations from a re-analysis of the deposited data

How the results depend on the processing

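No setting reversed a called value. With library totals and median-of-ratios size factors, the same 4 members kept intervals above 1 and the same 2 below 1. The pseudocount of 0.5 CPM does not enter the interval, and both other count minimums only decide which genes are measured. The same member calls under those settings are therefore no check. With intervals made wider for an assumed spread between cultures (biological coefficient of variation 0.2), 1 member stayed above 1 (Bbc3) and 0 below. With 0.4 it was 0 and 0, and of all genes 597 were higher by the 2-fold rule and 96 lower. The repeats of the member interval counts and the use of the longest transcripts were alternatives chosen after seeing the data. At a 1.5-fold threshold 2 members were higher and 0 lower, with 2673 and 1878 of all genes. A minimum of 100 counts left 1095 genes higher and 366 lower, since fewer genes were measured. The log2 ratio of the antiapoptotic sum was 0.19 with library totals. Without Mcl1 it was 0.64, with nearly all of that sum from Bcl2l1. The log2 ratio of the proapoptotic sum was 0.033 from raw counts and 0.13 without Bax. The difference between the classes was 0.51 without both genes. The proapoptotic sum thus changed sign. Its interval included 0 in the main setting (-0.08 to 0.03) and from raw counts (-0.02 to 0.08). Without Bax the interval lay above 0 (0.07 to 0.18). Depth limits Bcl2 most, with 15 and 10 counts (Pc4-OE and control). No paired analysis was possible because each group had 1 library.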

Other observations

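Lists around the members that the report does not describe had medians below 0. Of 7 genes for partners of the family on the outer membrane and for mitochondrial shape, 0 were at least 2-fold higher and 0 lower in the Pc4-OE-labelled library. Among all genes the shares were 11.8% and 4.02%, so counts of 0 in this and the following lists single out nothing. The median log2 ratio here was -0.17. Mtch2, the mitochondrial receptor of cleaved BID, was at 121 CPM in the Pc4-OE-labelled library and 178 CPM in the control-labelled library, a log2 ratio of -0.55 (interval -0.66 to -0.45). Vdac2, the channel that holds BAK, was at 299 and 301 CPM (Pc4-OE and control), a log2 ratio of -0.01, and was named after its value was seen. Of 4 genes for MCL1 turnover, 0 met the 2-fold rule, with a median of -0.15. Fbxw7, a ubiquitin ligase subunit that targets MCL1, had a log2 ratio of -0.57, Huwe1, another such ligase, -0.17 and Usp9x, a deubiquitinase of MCL1, -0.12. Of 13 genes for BAD kinases and the 14-3-3 proteins that hold phosphorylated BAD, 0 met the rule, with a median of -0.19. Akt1 was at 135 CPM in the Pc4-OE-labelled library and 82.1 CPM in the control-labelled library (log2 ratio 0.71), and the 14-3-3 gene Sfn had 0.77. The 14-3-3 genes Ywhaz and Ywhag had -0.86 and -0.64. The fibroblast markers stood at a median of 1.29 in the same libraries, and their part in these values was not tested.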
